A study of Mus musculus with 30 samples.

Results

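Imeglimin, a glucose-lowering drug given by mouth for type 2 diabetes, was compared with high-fat diet (HFD) alone in the brown adipose tissue (BAT) of C57BL/6N mice that all ate this diet. The 5 libraries labelled as HFD with imeglimin were 86, 88, 89, 91 and 94, and the 5 labelled as HFD alone were 75, 76, 79, 80 and 83, together 10 of the 30 libraries of the series. The other 20 came from liver and subcutaneous white adipose tissue (sWAT) under the same treatments. The labels give no age, dose or length of treatment, and do not say whether each library is a separate animal, so the p-values measure the spread between these libraries. Values per library are given in the order of the numbers above, imeglimin before HFD.

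Brown adipocytes burn fatty acids and glucose in densely packed mitochondria, where uncoupling protein 1 lets protons return across the inner membrane and releases the energy as heat. They also make fatty acids from glucose: citrate leaves the mitochondria, ATP citrate lyase splits it to acetyl-CoA, acetyl-CoA carboxylase and fatty acid synthase build palmitate, and NADPH for this comes from malic enzyme and the pentose phosphate pathway. Insulin, acting through AKT and mTOR, and the factors SREBP-1c and ChREBP raise this programme in rodents, while catecholamines acting on beta-adrenergic receptors raise lipolysis and heat production.

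The values deposited were TPM, a transcript abundance per unit of transcript length that is scaled to the same total in every library. Transcripts of mitochondrial DNA took 38.8 ± 0.139% of that total with imeglimin and 38.6 ± 1.59% with HFD (SD, n = 5 each). Nuclear near-copies of mitochondrial genes, whose reads may come from the mitochondrial transcripts themselves, took 29.5 ± 0.634% with imeglimin and 26.8 ± 0.822% with HFD, and this share did not overlap between groups (exact permutation p = 0.00794, two-sided, the smallest that 5 against 5 allows). Genes of mitochondrial DNA were dropped, the nuclear near-copies were kept, and the rest was rescaled by median ratios. The resulting levels are called scaled TPM. With TPM as deposited the median log2 difference of all genes was -0.116, and after median-ratio scaling it was 0.00. Summed over 8 defining markers, brown adipocyte transcripts made up 13800 to 15477 TPM with imeglimin and 12971 to 15842 TPM with HFD. The sum of 12 defining skeletal muscle markers was 5839 TPM in imeglimin library 94, with 44.5 to 257 TPM in the other imeglimin libraries, and 6607 TPM in HFD library 79, with 124 to 876 TPM in the other HFD libraries. These libraries also had the highest scores on the first principal component, which held 38.4% of the variance, so results are also given without both of them. The lowest scores, -24.8 in imeglimin 88 and -24.7 in HFD 80, were in the libraries with the least hepatocyte marker RNA. Their sums of defining hepatocyte markers were 28.5 and 22.2 TPM, against 2106 TPM in imeglimin 94 and 1170 TPM in HFD 79. What this component reflects was not tested. In whole tissue, fewer cells of a type and less RNA per cell cannot be told apart.

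Of 11391 genes tested in BAT, 5 fell with imeglimin and 0 rose at an adjusted p under 0.05 in limma, 0.0439% and 0.0% of the genes. The 5 were Deptor, Me1, Ccdc3, Scd2 and Tulp4, and each had an adjusted p of 0.0312. At an unadjusted p under 0.05, 796 genes were lower (6.99%) and 891 were higher (7.82%). The groups did not overlap for 224 lower genes (1.97%) and 233 higher genes (2.05%). With TPM as deposited 98 genes were called lower and 1 higher, and with mitochondrial genes dropped and the rest only rescaled to a common total 224 were lower and 4 higher. With the nuclear near-copies dropped too before that rescaling, the same 5 genes were lower and 0 higher, and 1052 genes were lower and 745 higher at an unadjusted p under 0.05. In TPM as deposited 23.0% of all genes were lower and 1.25% higher at that p, and the counts of gene lists in TPM as deposited are to be read against these shares. In scaled TPM the list counts are to be read against 6.99% lower and 7.82% higher. Without libraries 79 and 94 the shares were 6.36% and 6.07%, and with the muscle marker level as a covariate 6.57% and 7.3%. Every gene list whose median was 0.01 to 0.12 in scaled TPM had a negative median with TPM as deposited. Of 34 positive differences among 79 genes named by the fixed rule, 25 were smaller by over 1.5 times with TPM as deposited, and of 45 negative ones 4 were larger by over 1.5 times.

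Deptor encodes a protein that binds mTOR and inhibits it, and in mouse fat it promotes adipocyte formation. Its level was 46.9, 46.0, 39.1, 35.2 and 36.2 scaled TPM with imeglimin, against 63.4, 78.7, 75.8, 89.97 and 69.0 scaled TPM with HFD. Every imeglimin library was below every HFD library. The means were 40.7 ± 5.46 and 75.4 ± 10.1 scaled TPM, and the log2 difference was -0.87 (SE 0.11). Deptor lies on chromosome 15 at 54975713 to 55122667 of GRCm39, the build of all gene coordinates here.

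Me1 encodes the cytosolic malic enzyme, which turns malate to pyruvate and makes NADPH. Its level was 87.1, 105, 76.1, 66.3 and 76.5 scaled TPM with imeglimin, against 134, 205, 190, 173 and 158 scaled TPM with HFD, again with no overlap. The log2 difference was -1.06 (SE 0.14), and the gene lies on chromosome 9 at 86463424 to 86578006. Scd2 encodes a stearoyl-CoA desaturase, which puts a double bond into saturated fatty acids. It stood at 17.8, 12.1, 9.37, 11.2 and 12.1 scaled TPM with imeglimin, against 24.2, 36, 31.3, 46.1 and 34.3 scaled TPM with HFD. This was the largest change among the 5 genes, with a log2 difference of -1.39 (SE 0.18), and the gene lies on chromosome 19 at 44282113 to 44295303.

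Ccdc3 encodes a secreted protein of fat and blood vessel cells. Its levels were 56.7, 53.5, 57.0, 50.0 and 49.0 scaled TPM with imeglimin and 71.0, 72.7, 77.6, 68.0 and 75.8 scaled TPM with HFD. The log2 difference of Ccdc3 was -0.45 (SE 0.06), a smaller change in a gene whose libraries lay close together within each group. Tulp4, a member of the tubby-like family, had the narrowest spread. It stood at 3.56, 3.95, 3.58, 3.73 and 3.73 scaled TPM with imeglimin, against 5.17, 5.08, 5.29, 5.43 and 4.97 scaled TPM with HFD, a log2 difference of -0.39 (SE 0.05). Ccdc3 lies on chromosome 2 at 5142587 to 5235689 and Tulp4 on chromosome 17 at 6156712 to 6301403.

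The adjusted p of these 5 genes did not stay under the threshold in every fit. Over all settings run, the log2 difference ranged from -1.02 to -0.79 for Deptor, -1.20 to -0.99 for Me1, -1.55 to -1.28 for Scd2, -0.59 to -0.40 for Ccdc3 and -0.55 to -0.30 for Tulp4. With the muscle marker level as a covariate the log2 differences were -0.89 for Deptor, -1.02 for Me1, -0.47 for Ccdc3, -1.44 for Scd2 and -0.38 for Tulp4, each with an adjusted p of 0.115 in limma, and 0 genes passed. Without libraries 79 and 94 together they were -0.83, -0.997, -0.40, -1.41 and -0.39 in the same order, each with an adjusted p of 0.253. Leaving out imeglimin library 88 gave 53 lower and 51 higher genes, leaving out imeglimin 86 gave 14 and 2, leaving out HFD 75 gave 12 and 4, and the 5 genes were among the calls each time. Leaving out any other single library, which is HFD 76, 79, 80 or 83 or imeglimin 89, 91 or 94, gave 0 calls.

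**Figure D1:**
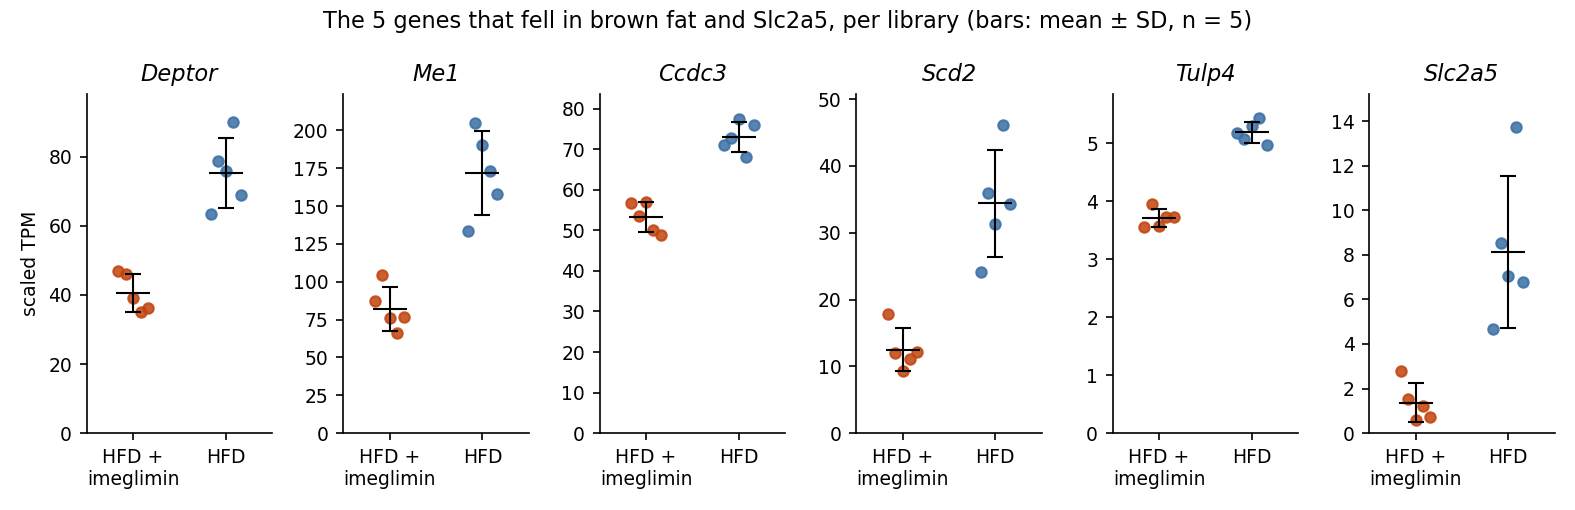
Levels of the 5 genes that passed the test and of Slc2a5, which did not, in each BAT library, in scaled TPM on the vertical axis, with imeglimin left of HFD; points are libraries and bars are means with SD. For each of the 6 genes every imeglimin point lies below every HFD point.

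The 250 bases before the start of Me1, Ccdc3 and Tulp4, which fell, and of Fasn, the central gene of the lipogenic group described next, are shown because these genes moved in the same direction and their windows can be compared letter by letter. They are RefSeq promoter windows of GRCm38.p6, a different build from that of the gene coordinates above, and are printed 5′ to 3′ on the gene's strand from its most upstream start in that table. Capitals mark the motifs found on either strand: the E-box CACGTG, the CCAAT box and the GC box GGGCGG.
Me1, chr9:86695915-86696164, minus strand: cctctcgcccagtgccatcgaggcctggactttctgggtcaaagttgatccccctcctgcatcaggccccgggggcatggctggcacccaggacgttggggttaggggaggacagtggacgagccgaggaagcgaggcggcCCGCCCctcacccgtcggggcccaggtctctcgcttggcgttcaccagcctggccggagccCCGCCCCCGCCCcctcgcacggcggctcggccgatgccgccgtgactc
Ccdc3, chr2:5137526-5137775, plus strand: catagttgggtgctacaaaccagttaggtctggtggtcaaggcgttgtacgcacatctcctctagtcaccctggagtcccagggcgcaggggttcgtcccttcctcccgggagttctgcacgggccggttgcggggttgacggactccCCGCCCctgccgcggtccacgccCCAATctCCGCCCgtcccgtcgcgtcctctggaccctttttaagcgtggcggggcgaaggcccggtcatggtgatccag
Tulp4, chr17:6106580-6106829, plus strand: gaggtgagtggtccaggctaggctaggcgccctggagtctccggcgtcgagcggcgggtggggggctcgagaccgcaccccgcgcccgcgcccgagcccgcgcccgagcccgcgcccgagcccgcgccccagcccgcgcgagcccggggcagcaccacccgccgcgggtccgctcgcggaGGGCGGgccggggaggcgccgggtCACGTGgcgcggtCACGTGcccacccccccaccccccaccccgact
Fasn, chr11:120824548-120824797, minus strand: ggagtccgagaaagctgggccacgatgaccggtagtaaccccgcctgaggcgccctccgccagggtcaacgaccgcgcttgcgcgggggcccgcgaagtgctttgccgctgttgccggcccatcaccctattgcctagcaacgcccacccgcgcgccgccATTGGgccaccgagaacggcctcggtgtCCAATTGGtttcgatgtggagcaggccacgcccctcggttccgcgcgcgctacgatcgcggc

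In these 250 bases Me1 held 3 GC boxes, 2 of them next to each other, and Fasn 3 CCAAT matches, of which 2 overlap in a palindrome. Ccdc3 held 1 CCAAT box and 2 GC boxes, and Tulp4 2 E-boxes and 1 GC box. Of all 32851 windows in the table, 33.8% held CCAAT, 32.7% held GGGCGG and 6.02% held CACGTG on either strand in their 250 bases before the start, and of the 11202 windows of genes tested in BAT, 35.1%, 58.3% and 8.52% did. Of the 18 windows of fatty acid synthesis genes, 11 held CCAAT there (61.1%), 9 held GGGCGG (50.0%), a smaller share than among the genes tested, and 3 held CACGTG (16.7%). The sterol response element TCACNCCAC was in 1 of these windows, 5.56%, against 1.03% for genes tested and 1.05% of all windows, and the cyclic AMP response element TGACGTCA in 1, 5.56%, against 2.54% and 1.55%. A match is a description of letters and shows no binding.

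Apart from skeletal muscle markers, fatty acid synthesis was the gene list with the most negative median. All 17 listed genes were tested, 2 fell (Me1 and Scd2), and 11 of 17 were lower at an unadjusted p under 0.05 with 0 higher, where 6.99% of all genes were lower at that p. All lists were chosen with earlier results of these data known, so list shares beside those of all genes are descriptions and not tests. The list median was -0.68 on the log2 scale, against 0.00 for all genes, and 8 of the 17 were lower without overlap between groups, where 1.97% of all genes were. Without libraries 79 and 94, 12 of 17 were lower at that p, against 6.36% of all genes in that fit, and the median was -0.62. Without imeglimin library 88, 8 of the 17 passed the adjusted threshold, all lower, in place of 2, where 0.468% of all genes were called lower. Of the fits with 1 library left out, this one called the most genes. Library 88 had the smallest shift of the imeglimin libraries for this list, at -0.49 from the HFD mean. Leaving out HFD 76, 79, 80 or 83 or imeglimin 89, 91 or 94 gave 0 calls among all genes. Acly, ATP citrate lyase, stood at 269, 239, 136, 147 and 76.7 scaled TPM with imeglimin, against 358, 625, 478, 760 and 464 scaled TPM with HFD (log2 difference -1.71, limma adjusted p = 0.095). Acaca, acetyl-CoA carboxylase, stood at 76, 87.8, 49.1, 55.7 and 34.6 scaled TPM with imeglimin, against 108, 175, 139, 193 and 144 scaled TPM with HFD (-1.35, adjusted p = 0.0912). Neither gene overlapped between the groups, and imeglimin libraries 86 and 88 were the highest of their group for both.

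Fasn, fatty acid synthase, stood at 868, 1158, 500, 551 and 396 scaled TPM with imeglimin, against 1223, 2286, 1708, 2408 and 1713 scaled TPM with HFD, a log2 difference of -1.50 (adjusted p = 0.095). The highest imeglimin library, 88 at 1158, was just under the lowest HFD library, 75 at 1223. Slc25a1, the carrier that exports citrate from mitochondria, averaged 136 ± 18.8 scaled TPM with imeglimin and 255 ± 53.9 with HFD (-0.88, adjusted p = 0.0775). Elovl6, which lengthens palmitate, averaged 53.1 ± 16.8 and 108 ± 26.0 scaled TPM (-1.04), and Acss2, which activates acetate, 19.4 ± 3.35 and 31.7 ± 5.53 (-0.68), each with imeglimin first and with an adjusted p of 0.095. Scd1, the major desaturase of adipose tissue, averaged 2718 ± 1053 scaled TPM with imeglimin and 5812 ± 1364 with HFD (-1.14, adjusted p = 0.103), but imeglimin 88 at 4154 was above HFD 75 at 3618. Thrsp, a lipogenic gene also known as Spot 14, differed by -0.54 (adjusted p = 0.173), and its groups overlapped too. HFD library 75 had the lowest level of the HFD group for Acly, Acaca, Fasn, Slc25a1, Elovl6, Acss2 and Scd1, and also for Me1 and Scd2.

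**Figure D2:**
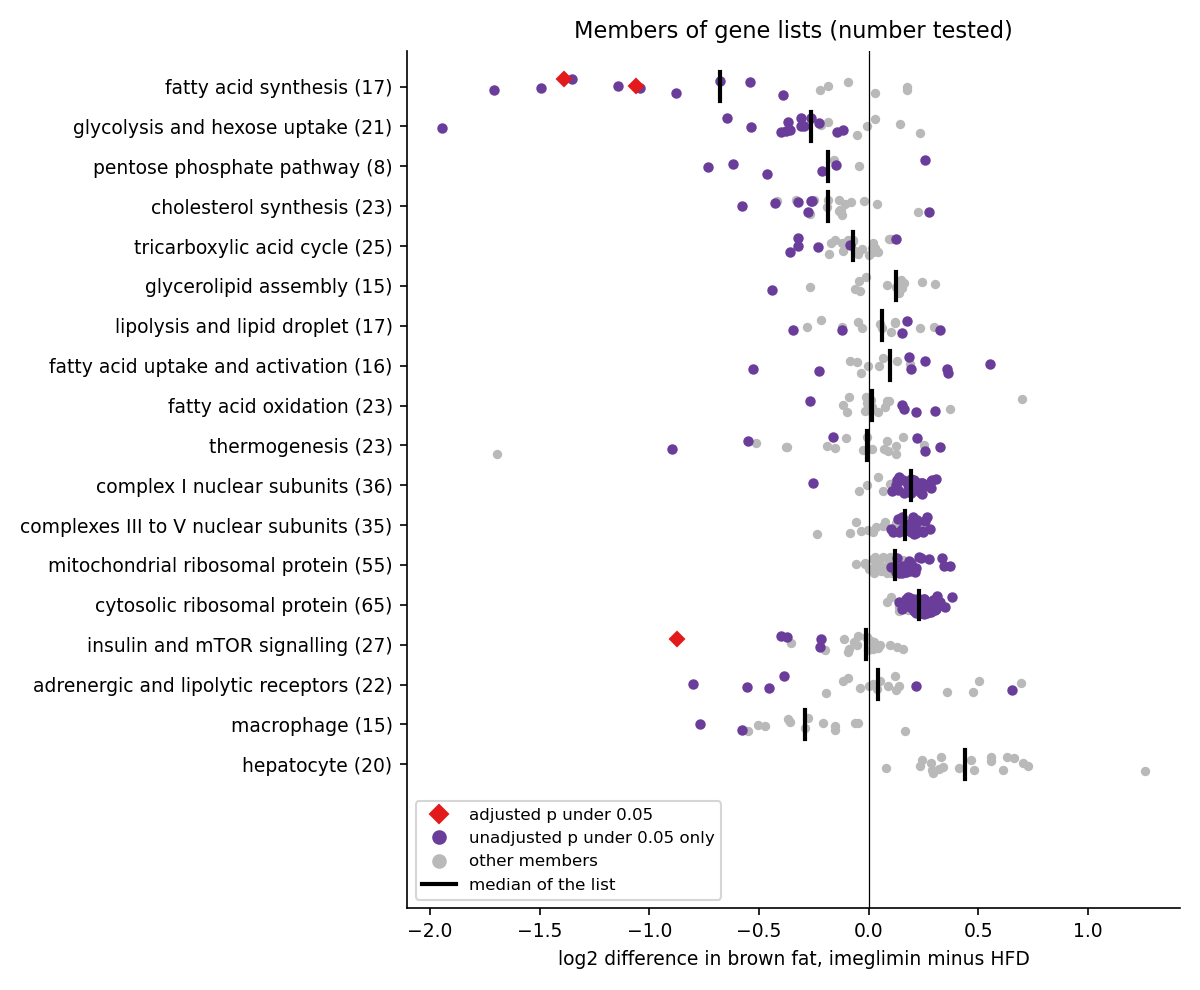
Log2 difference of imeglimin minus HFD for each tested member of the gene lists in BAT (horizontal axis), with 1 row per list; red diamonds are genes with an adjusted p under 0.05, purple points those with an unadjusted p under 0.05, grey points the others, and black bars list medians. Fatty acid synthesis has a median of -0.68 and spans -1.71 to 0.18, while most lists have medians near 0.

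The enzymes that feed this route showed the same direction in part. Of 8 pentose phosphate genes, 5 were lower and 1 higher at an unadjusted p under 0.05, against 6.99% and 7.82% of all genes, and the median was -0.19. Pgd, the second NADPH-making enzyme of the pathway, averaged 53.5 ± 8.87 scaled TPM with imeglimin and 89.5 ± 16 with HFD (log2 difference -0.73), and G6pdx, the first, 80.7 ± 10.6 and 111 ± 7.83 scaled TPM (-0.46). Both had an adjusted p of 0.095 and no overlap, whereas Tkt, transketolase, differed by -0.62 with overlapping groups. Of 21 glycolysis and hexose uptake genes, 14 were lower and 0 higher at that p, with a median of -0.26, and without libraries 79 and 94 there were 12 lower, against 6.36% of all genes in that fit, and a median of -0.30. Since skeletal muscle also carries out glycolysis at a high rate, the muscle marker list is relevant beside this count. All 20 of its tested members, out of 24, had negative differences, with a median of -1.71 and 0 at an unadjusted p under 0.05, and without libraries 79 and 94 the median was -2.77 with 14 lower. With the muscle covariate 14 glycolysis genes were lower and 1 higher, against 6.57% and 7.3% of all genes in that fit, with a median of -0.31. The part of muscle RNA in these values was not tested beyond these fits.

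Slc2a5, which encodes the fructose transporter GLUT5, had the largest difference in this list. It stood at 2.80, 1.55, 0.605, 1.20 and 0.717 scaled TPM with imeglimin, against 4.66, 8.53, 7.05, 13.7 and 6.76 scaled TPM with HFD. Every imeglimin library was below every HFD library, with means of 1.37 ± 0.881 and 8.14 ± 3.41 and a log2 difference of -1.94 (SE 0.28, limma adjusted p = 0.0595). Among the glycolytic enzymes, Gpi1, which interconverts glucose and fructose phosphates, differed by -0.40, and Pkm, pyruvate kinase, by -0.38, both with adjusted p = 0.095 and no overlap. Eno1, enolase, averaged 541 ± 78.2 scaled TPM with imeglimin and 786 ± 132 with HFD (-0.53). Eno1b, a near-copy of Eno1 whose reads may be shared with it and whose level is therefore uncertain, averaged 2.10 ± 0.760 and 4.70 ± 0.585 scaled TPM (-0.91, adjusted p = 0.077). Hk2, hexokinase 2, differed by -0.64 and Slc2a4, the insulin-responsive glucose transporter GLUT4, by -0.30, and both overlapped between groups.

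Genes at the exit of glycolysis were also lower without passing. Dlat, a subunit of pyruvate dehydrogenase, which makes acetyl-CoA in mitochondria, averaged 180 ± 17.8 scaled TPM with imeglimin and 226 ± 20.4 with HFD, without overlap (log2 difference -0.32). The other subunit genes Pdhb and Pdha1 differed by -0.36 and -0.32, with overlap. Gpd1, which makes glycerol 3-phosphate for triglycerides, averaged 2779 ± 324 and 3784 ± 550 scaled TPM (-0.44, adjusted p = 0.112, no overlap). The 25 tricarboxylic acid cycle genes had a median of -0.07, with 5 lower and 1 higher at an unadjusted p under 0.05. With TPM as deposited their median was -0.22, with 17 lower and 0 higher. Of all genes 6.99% were lower and 7.82% higher, or 23.0% and 1.25% with TPM as deposited. The 15 glycerolipid assembly genes, to which Gpd1 belongs, had a median of 0.12 (-0.02 with TPM as deposited and 0.04 with the muscle covariate) with 1 lower and 0 higher, unlike the genes of fatty acid synthesis, whose median was negative in both scalings.

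In the other direction, genes of the respiratory chain had small higher values. Of 36 nuclear genes of complex I, 29 were higher and 1 lower at an unadjusted p under 0.05, where 7.82% of all genes were higher, and 14 did not overlap. Their median was 0.19. Of 35 genes of complexes III to V, all those whose listed symbols the table holds, 24 were higher and 0 lower at that p, 17 did not overlap, and the median was 0.17. No member passed the adjusted threshold, and these lists too were chosen with earlier results of these data known. Without libraries 79 and 94, 21 complex I genes and 22 genes of complexes III to V were higher at that p. With TPM as deposited the medians were 0.05 and 0.02. At that p 4 complex I genes were then higher and 3 lower, and 2 genes of complexes III to V were higher and 5 lower. Of all genes 1.25% were higher and 23.0% lower in that scaling.

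Ndufa5, an accessory subunit of complex I, had the lowest p of the higher genes. It stood at 215, 202, 225, 214 and 220 scaled TPM with imeglimin, against 168, 174, 164, 182 and 180 scaled TPM with HFD. The groups did not overlap, and the log2 difference was 0.31 (SE 0.05, adjusted p = 0.0595). Ndufa7, also of complex I, averaged 127 ± 5.25 scaled TPM with imeglimin and 107 ± 3.29 with HFD (0.24, adjusted p = 0.0912), and the complex I assembly factor Ndufaf8 42.6 ± 1.81 and 35.5 ± 1.30 scaled TPM (0.25, adjusted p = 0.0912). In complex III Uqcr11 differed by 0.28, in complex IV Cox6c by 0.22, and in ATP synthase Atp5h by 0.24, all without overlap. Cox7a1 and Cox8b, the heart and brown fat isoforms of cytochrome oxidase subunits, differed by 0.22 and 0.26, also without overlap.

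The 13 protein genes on mitochondrial DNA itself, which code for core subunits of the same complexes, were not among those tested. On the scale of the nuclear genes their median log2 difference was 0.13, with 10 positive and 3 negative, from -0.32 for mt-Nd5 to 0.54 for mt-Co3. With TPM as deposited the median was -0.01 and 6 were positive. mt-Nd5 averaged 9517 ± 1512 TPM as deposited with imeglimin and 13153 ± 2202 TPM with HFD. mt-Co2 varied widely, at 10110 ± 7861 TPM with imeglimin and 8085 ± 1625 TPM with HFD. These values may depend on how reads were divided between these genes and their nuclear near-copies, which was not tested.

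Ribosomal protein genes, whose lists were also chosen with earlier results of these data known, had small positive differences. All 65 tested genes of the cytosolic ribosome had positive differences, from 0.08 to 0.38, with a median of 0.23, and 58 were higher at an unadjusted p under 0.05, where 7.82% of all genes were. Of these 65, 14 did not overlap between groups, against 2.05% of all genes, and without libraries 79 and 94 43 were higher at that p, against 6.07%. The 55 genes of the mitochondrial ribosome had a median of 0.12, with 22 higher and 0 lower at that p, or 9 higher without libraries 79 and 94 and 12 with the muscle covariate. Without imeglimin library 88, 13 cytosolic and 3 mitochondrial ribosomal genes passed the adjusted threshold, all higher, where 0.45% of all genes were called higher. Library 88 was the lowest of the imeglimin libraries for both lists, at 0.04 and 0.07 from the HFD mean. Leaving out HFD 76, 79, 80 or 83 or imeglimin 89, 91 or 94 gave 0 calls among all genes. With TPM as deposited the medians were 0.09 and -0.02 for the cytosolic and the mitochondrial list, and at an unadjusted p under 0.05 the cytosolic list had 7 higher and 0 lower and the mitochondrial list 3 higher and 4 lower.

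Rps28 averaged 59.3 ± 5.02 scaled TPM with imeglimin and 46.3 ± 2.50 with HFD (log2 difference 0.35, adjusted p = 0.095), and Rps27 146 ± 13.9 and 111 ± 6.92 scaled TPM (0.38, adjusted p = 0.095), both small-subunit proteins without overlap between groups. Mrpl41, of the large mitochondrial subunit, averaged 50.3 ± 2.89 and 39.4 ± 2.46 scaled TPM (0.34, adjusted p = 0.077), and Mrps16, of the small one, 27.7 ± 2.10 and 21.8 ± 1.48 (0.33). Rps3a2, a near-copy of a ribosomal protein gene, averaged 11.4 ± 0.935 and 7.57 ± 1.44 scaled TPM (0.54), and its reads may belong to the parent gene.

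**Figure D3:**
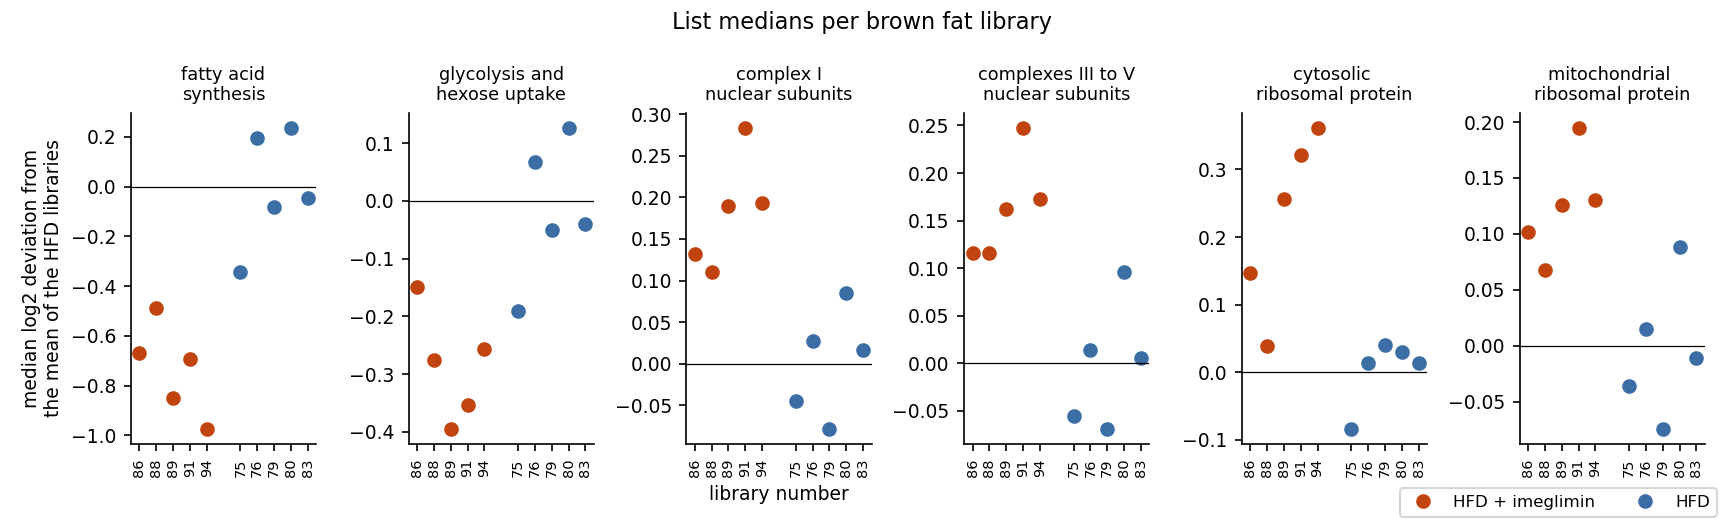
Median over the members of 6 gene lists of the log2 level relative to the mean of all HFD libraries (vertical axis), 1 point per BAT library, imeglimin left of HFD. Fatty acid synthesis is at -0.97 to -0.49 with imeglimin and -0.35 to 0.23 with HFD, complex I at 0.11 to 0.28 and -0.08 to 0.09, while the cytosolic ribosomal list overlaps between groups in imeglimin library 88 only, at 0.04.

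These higher lists consist of short transcripts, and the imeglimin minus HFD difference varied with annotated transcript length over the whole transcriptome. Length here is that of the longest annotated transcript of each gene, which need not be the one expressed. The median was 1026 nt for complex I, 1001 nt for complexes III to V and 1109 nt for cytosolic ribosomal proteins. It was 3622 nt for fatty acid synthesis and 3200 nt for all genes tested. Across genes, which are not independent replicates, Spearman's rho between length and the log2 difference was -0.32. Genes under 500 nt had a median difference of 0.15 and those of 8000 nt or more of -0.07. In single libraries, genes under 1000 nt minus genes of 5000 nt or more gave 0.04, -0.07, 0.16, 0.20 and 0.19 with imeglimin, against -0.17, -0.07, -0.12, -0.03 and -0.08 with HFD on the log2 scale. Imeglimin library 88 thus lay within the HFD range and the other 4 above it.

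With this length trend removed from every library, 681 of 11372 genes were higher and 730 lower at an unadjusted p under 0.05. The list counts of this fit are to be read against these. The complex I median was 0.08 with 11 of 36 genes higher at that p, that of complexes III to V 0.05 with 10 of 35, and that of cytosolic ribosomal proteins 0.13 with 34 of 65. The mitochondrial ribosomal median became 0.08 with 11 higher. Cox7a1 and Cox8b then differed by 0.06 and 0.07, Ndufa5 by 0.19, Fabp3 by 0.24 and Mrpl41 by 0.22, and of the 34 positive differences of genes named by the rule 15 were smaller by over 1.5 times. The fatty acid synthesis median was -0.66 with 11 of 17 lower, close to its value before. No gene of the whole transcriptome passed the adjusted threshold in this fit, where the lowest adjusted p was 0.0535. Why the difference varied with transcript length was not tested.

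**Figure D4:**
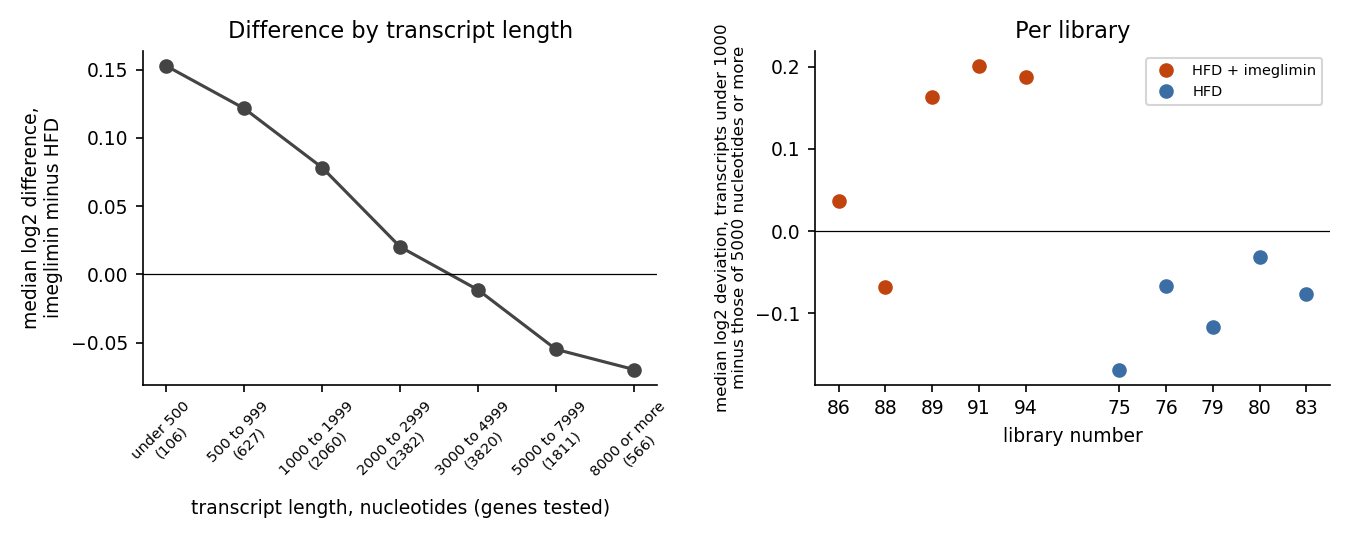
Transcript length and the imeglimin minus HFD difference in BAT: median log2 difference by length class in nt, and, for each library, the median of genes under 1000 nt minus that of genes of 5000 nt or more, with imeglimin left of HFD. The class medians run from 0.15 in the shortest class to -0.07 in the longest.

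Genes of fatty acid uptake, oxidation and storage had medians near 0, and the balance of higher and lower members depended on the scaling. Fabp3, the heart-type fatty acid binding protein that is abundant in brown fat, had the lowest p among those of uptake. It stood at 2465, 2245, 2506, 2446 and 2517 scaled TPM with imeglimin, against 2060, 1729, 1890, 1957 and 1840 scaled TPM with HFD. Every imeglimin library was above every HFD library, and the log2 difference was 0.36 (adjusted p = 0.0595). Fabp4, the adipocyte binding protein, differed by 0.19 (0.05 with TPM as deposited) and the epidermal-type Fabp5 by -0.23, both without overlap and without passing (adjusted p = 0.159 and 0.154). Acsl5, which activates fatty acids, differed by -0.53 with overlap. Lpl, the lipase that frees fatty acids from circulating triglycerides, and Gpihbp1, which anchors it in capillaries, differed by 0.18 and 0.36, with overlap. Over the 16 uptake and activation genes, 6 were higher and 2 lower at an unadjusted p under 0.05, against 7.82% and 6.99% of all genes, with a median of 0.10. In TPM as deposited 1 was higher and 5 lower, with a median of -0.03.

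The 23 fatty acid oxidation genes had a median of 0.01, with 4 higher and 1 lower at that p, against 7.82% and 6.99% of all genes. With TPM as deposited the median was -0.13, with 1 higher and 8 lower, against 1.25% and 23.0%. Etfb, which passes electrons from fatty acid oxidation to the respiratory chain, averaged 1290 ± 109 scaled TPM with imeglimin and 1044 ± 54.8 with HFD (log2 difference 0.30, adjusted p = 0.095, no overlap). Eci1, needed for unsaturated fatty acids, differed by 0.22, and Cpt1b, which carries fatty acids into mitochondria, by 0.16. Hadha, a subunit of the mitochondrial trifunctional protein, differed by -0.27 with overlap. Of the 17 lipolysis and lipid droplet genes, 3 were higher and 2 lower at that p, with a median of 0.06, or 1 higher and 3 lower with TPM as deposited. Cidea, a lipid droplet protein of brown adipocytes, averaged 2256 ± 151 and 1803 ± 159 scaled TPM (0.33, adjusted p = 0.095, no overlap), whereas the droplet coat gene Plin2 differed by -0.35 with overlap.

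The 23 thermogenesis genes had a median of -0.01. At an unadjusted p under 0.05, 3 were lower and 3 higher, against 6.99% and 7.82% of all genes. With TPM as deposited 6 were lower and 2 higher, against 23.0% and 1.25%. Ucp1, the uncoupling protein itself, stood at 5573, 4604, 4533, 5294 and 4399 scaled TPM with imeglimin, against 4901, 4642, 3647, 5609 and 4314 scaled TPM with HFD. The groups overlapped almost wholly, and the log2 difference of 0.09 (adjusted p = 0.776) was -0.06 with TPM as deposited. Acot11, a thioesterase that restrains heat production in mouse brown fat, averaged 81.5 ± 17.1 scaled TPM with imeglimin and 154 ± 38.7 with HFD (-0.90, adjusted p = 0.095, no overlap). Adrb3, the beta-3 adrenergic receptor, differed by 0.13 (adjusted p = 0.61), or by -0.02 with TPM as deposited, and Adrb1 by -0.55, both with overlap.

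Other receptors and signalling genes differed singly. Ptger3, a prostaglandin E2 receptor coupled to inhibitory G proteins, averaged 12.2 ± 1.77 scaled TPM with imeglimin and 16.9 ± 1.17 with HFD (log2 difference -0.45, adjusted p = 0.095, no overlap). Npr3, which clears natriuretic peptides, stood at 54.8, 26.2, 26.4, 29.5 and 26.7 scaled TPM with imeglimin, against 58.1, 67.3, 49.5, 59.4 and 44.8 scaled TPM with HFD. Only imeglimin library 86 reached the HFD range for Npr3, and the log2 difference was -0.80 (adjusted p = 0.112). Gnas, the stimulatory G protein alpha subunit, differed by 0.22. Of 22 adrenergic and lipolytic receptor genes, 4 were lower and 2 higher at an unadjusted p under 0.05, against 6.99% and 7.82% of all genes. The list median was 0.04. With TPM as deposited 5 were lower and 0 higher, against 23.0% and 1.25%.

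The insulin and mTOR list had 27 tested genes, of which Deptor fell and 5 in all were lower and 0 higher at an unadjusted p under 0.05, where 6.99% of all genes were lower. Mtor, the kinase that Deptor inhibits, averaged 20.8 ± 4.01 scaled TPM with imeglimin and 27.6 ± 3.51 with HFD (log2 difference -0.40, adjusted p = 0.176, overlapping). Rps6kb1, the S6 kinase downstream of it, averaged 5.91 ± 0.514 and 7.01 ± 0.204 scaled TPM (-0.22), Tsc2, an upstream inhibitor, 16.9 ± 1.32 and 19.9 ± 1.07 (-0.22), and Gsk3b, a kinase that AKT inhibits, 8.22 ± 1.15 and 10.9 ± 1.37 (-0.37). The list median was -0.01, and of these genes only Deptor passed.

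Imeglimin is related in structure to metformin, a drug known to activate AMP-activated kinase (AMPK), and is reported to act on NAD synthesis, so genes of both were listed together. Of 23, 2 were lower and 3 higher at an unadjusted p under 0.05, against 6.99% and 7.82% of all genes, with a median of 0.02. With TPM as deposited 2 were lower and 1 higher, against 23.0% and 1.25%. Prkaa2 and Prkab1, a catalytic and a regulatory AMPK subunit, differed by -0.44 and -0.50, and Naprt, which makes NAD from nicotinic acid, by 0.34, all with overlap. Prkaa2 was highest in the muscle-rich library of each group, at 4.69 scaled TPM in imeglimin 94 and 5.97 in HFD 79, and its log2 difference was -0.26 with the muscle covariate. Naxe, which repairs damaged NADH and NADPH, averaged 97.0 ± 4.61 scaled TPM with imeglimin and 81.3 ± 2.75 with HFD (0.25, adjusted p = 0.0943, no overlap), and its log2 difference was 0.11 with TPM as deposited and 0.14 with the length trend removed.

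Among 18 clock genes, 3 were lower and 1 higher at that p, against 6.99% and 7.82% of all genes, with a median of 0.06. With the muscle covariate 4 were lower and 7 higher, against 6.57% and 7.3% of all genes, with a median of 0.18. With TPM as deposited 4 were lower and 0 higher, against 23.0% and 1.25%. Cry1, a repressor of the clock, had a log2 difference of -0.47, and Arntl, the activator also called Bmal1, of -0.39, with overlap. Nr1h3, which encodes the oxysterol receptor LXR alpha, an activator of SREBP-1c in rodents, averaged 38.4 ± 1.61 scaled TPM with imeglimin and 33.4 ± 1.34 with HFD (0.19, adjusted p = 0.108, no overlap), or 0.05 with TPM as deposited.

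Sterol synthesis had small negative values. Counts in this paragraph stand beside 6.99% of all genes lower and 7.82% higher, or 23.0% and 1.25% with TPM as deposited. Of 23 genes, 20 had negative differences, 6 were lower and 1 higher at an unadjusted p under 0.05, and the median was -0.19, or -0.33 with 11 lower and 0 higher with TPM as deposited. Sc5d, which forms the sterol ring double bond late in the pathway, differed by -0.58 and Lss, which closes the rings, by -0.32, both with overlap. The 23 NRF2 and glutathione genes had a median of -0.05, with 5 lower and 3 higher, or -0.20 with 14 lower and 0 higher in TPM as deposited. Osgin1, an NRF2 target, differed by -0.56, and Gpx3, the secreted glutathione peroxidase, by 0.31. The 28 genes of the integrated stress and unfolded protein responses had a median of 0.01, with 1 lower and 4 higher (6 and 0 in TPM as deposited), and the 20 genes of branched-chain amino acid breakdown a median of 0.02, with 1 lower and 3 higher (5 and 0). Slc25a44, the carrier that brings these amino acids into brown fat mitochondria, differed by -0.32. The proteasome list had 2 lower and 8 higher of 33, or 8 lower and 0 higher in TPM as deposited. The lysosome and autophagy list had 3 lower and 4 higher of 32, or 9 lower and 0 higher in TPM as deposited. Atp6v1a, a subunit of the proton pump in this list, differed by -0.37 without overlap. In TPM as deposited the lower counts of the stress response, branched-chain, proteasome and lysosome lists were near the share of all genes.

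Adipokine genes varied widely within the groups. Cfd, which encodes adipsin, stood at 859, 721, 1401, 1121 and 1290 scaled TPM with imeglimin, against 951, 513, 336, 315 and 387 scaled TPM with HFD. HFD library 75 reached the imeglimin range, and the log2 difference was 1.19 (adjusted p = 0.117). Lep, leptin, averaged 67.0 ± 20.3 scaled TPM with imeglimin and 101 ± 10.2 with HFD (-0.64, adjusted p = 0.157), and Adipoq, adiponectin, 693 ± 50.9 and 598 ± 67.1 (0.22), with overlap. The 18 adipocyte identity and secretion genes had 1 lower and 2 higher at an unadjusted p under 0.05, or 4 lower and 1 higher with TPM as deposited. Of all genes 6.99% were lower and 7.82% higher, or 23.0% and 1.25% with TPM as deposited.

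Several genes outside these lists were near the threshold without passing. Scand1 averaged 49.9 ± 4.72 scaled TPM with imeglimin and 36.6 ± 1.30 with HFD (log2 difference 0.43, adjusted p = 0.0595). Chkb, choline kinase beta of phosphatidylcholine synthesis, stood at 61.2, 66.6, 63.6, 70.3 and 60.4 scaled TPM with imeglimin, against 53.0, 49.7, 51.4, 49.9 and 52.1 with HFD (0.32, adjusted p = 0.0595). Chkb, on the minus strand of chromosome 15 at 89310563 to 89314111, lies directly upstream of Cpt1b on the same strand. The highest coordinate of Cpt1b, which is its 5′ end on that strand, is 89310066. Ddt, D-dopachrome tautomerase, a cytokine related to MIF, stood at 188, 191, 234, 219 and 226 scaled TPM with imeglimin, against 162, 158, 122, 151 and 152 with HFD (0.50, adjusted p = 0.0912). On the lower side, Mmd stood at 165, 143, 132, 135 and 129 scaled TPM with imeglimin, against 181, 198, 198, 190 and 188 with HFD (-0.44, adjusted p = 0.0595). Dnaaf9 averaged 18.0 ± 2.60 and 25.9 ± 0.887 scaled TPM (-0.51, adjusted p = 0.077). None of these 5 genes overlapped between the groups.

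Of the higher genes with an assigned symbol, a mean of at least 1 TPM and groups that did not overlap, Nmb, which encodes neuromedin B, had the largest difference. It averaged 5.04 ± 0.896 scaled TPM with imeglimin and 2.68 ± 1.04 with HFD (log2 difference 0.76, adjusted p = 0.137). Mfng, a glycosyltransferase that modifies Notch, averaged 8.41 ± 1.57 and 5.69 ± 1.27 scaled TPM (0.50, adjusted p = 0.172). Mir17hg, the host transcript of the miR-17-92 cluster, averaged 1.72 ± 0.785 and 0.943 ± 0.262 scaled TPM (0.46), a value raised by imeglimin library 91 at 3.12. Differences of such low genes are on the log2(scaled TPM + 1) scale, which understates them.

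Markers of other cells gave no member past the adjusted threshold. Their counts at an unadjusted p under 0.05 stand beside 6.99% of all genes lower and 7.82% higher. Of 15 macrophage markers tested, out of 20 listed, 14 had negative differences, with a median of -0.29 and 2 lower at an unadjusted p under 0.05, and the 20 listed summed to 123 to 183 TPM with imeglimin and 126 to 316 TPM with HFD. The macrophage genes Lgals3 and Gpnmb, which mark lipid-laden cells, differed by -0.77 and -0.58, with overlap, and HFD library 80 was the highest for both, at 24.2 and 4.73 scaled TPM. All 20 hepatocyte markers had positive differences, with a median of 0.44 and 0 at that p, and their sum ranged from 67.6 to 3066 TPM with imeglimin and from 45.3 to 1707 TPM with HFD. The 15 endothelial markers had a median of 0.10 and the 20 fibroblast and collagen genes a median of -0.03, with 1 higher and 0 lower, and 1 higher and 1 lower, at that p. Of 13 lymphocyte markers 1 was tested, and the 13 summed to 20.8 to 34.6 TPM with imeglimin and 29.3 to 47.7 TPM with HFD, with Cd3e listed at 0 in imeglimin libraries 88, 89 and 91 and Cd79a in HFD library 79. Of the 15 interferon response genes, 1 was higher at that p, Ifi27l2a, at 951 ± 258 scaled TPM with imeglimin and 539 ± 260 with HFD (log2 difference 0.90, adjusted p = 0.187, overlapping). The part of these cells in the results above was not tested.

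Whether BAT responded differently from liver or sWAT was tested as the difference of the responses in a fit over all 30 libraries. That fit took the libraries as independent, although the tissues share replicate numbers. With the replicate number as a block, 0 genes differed from liver at an adjusted p under 0.05, so the calls against liver below did not hold there. Against sWAT 25 were lower and 14 higher in the block fit. Against liver, 6 genes (0.0527%) had a lower response in BAT and 3 (0.0263%) a higher one at an adjusted p under 0.05 in limma. Against sWAT, 41 (0.36%) were lower and 33 (0.29%) higher. Deptor was among them for both tissues, with a log2 difference of -0.87 in BAT, 0.14 in liver and 0.09 in sWAT (difference of responses -1.01, adjusted p = 0.0116, for liver and -0.96, adjusted p = 0.0125, for sWAT). Deptor averaged 61.3 ± 7.15 TPM with imeglimin and 55.8 ± 4.32 TPM with HFD in liver, and 82.8 ± 16 and 75.7 ± 5.40 TPM in sWAT. Slc2a5 differed by -1.94 in BAT and -0.03 in liver, with a difference of responses of -1.91 (adjusted p = 0.0334). In sWAT Slc2a5 was at 0.105 ± 0.235 TPM with imeglimin and 0.0417 ± 0.0634 TPM with HFD, too low to show a response, so the tissues cannot be compared for it.

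Tulp4 differed by 0.11 in liver (difference of responses -0.50, adjusted p = 0.0156). Of the 9 genes called against liver 2 had a mean under 1 TPM there, as had 5 of the 74 called against sWAT in that tissue, and 1 of each was listed at 0 in every library there, so that these calls restate the BAT difference. Proca1 had the opposite sign, with 0.18 in BAT and -0.63 in liver (0.81, adjusted p = 0.032).

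Against sWAT, Acaca differed by -1.35 in BAT and -0.09 in sWAT (difference of responses -1.26, adjusted p = 0.0374). Adrb1 had opposite signs, with -0.55 in BAT and 0.65 in sWAT (-1.20, adjusted p = 0.0449), but it was not called with the replicate number as a block. Higher responses in BAT were found for Mrpl41, with 0.34 and -0.22 (0.56, adjusted p = 0.047), for Alg14, of N-glycan assembly, with 0.11 and -0.75 (0.87, adjusted p = 0.0125), and for Fbln7, a matrix protein, with 0.28 and -1.03 (1.31, adjusted p = 0.0125), BAT before sWAT in each. The BAT value of Alg14 alone was -0.02 with TPM as deposited.

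Me1 and Scd2 fell in BAT, but their responses did not pass the test of a difference from the other tissues. Me1 differed by -0.37 in liver (adjusted p = 0.559 for the difference) and -0.89 in sWAT (0.843), and Scd2 by -0.03 in liver (0.14) and -1.12 in sWAT (0.752). Fasn differed by -0.48 in liver and -0.84 in sWAT (0.553 for sWAT). These tests do not show that the tissues responded alike. Without BAT libraries 79 and 94 there were 8 lower and 1 higher genes against liver, and 17 lower and 7 higher against sWAT. Without sWAT imeglimin library 88 there were 77 lower and 51 higher against sWAT, and 16 lower and 11 higher against liver. Leaving out 1 library number in all tissues gave 0 calls against liver without 80, 91 or 94 and 0 against sWAT without 80 or 89, while without number 88 there were 50 lower and 29 higher against liver and 184 lower and 119 higher against sWAT.

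**Figure D5:**
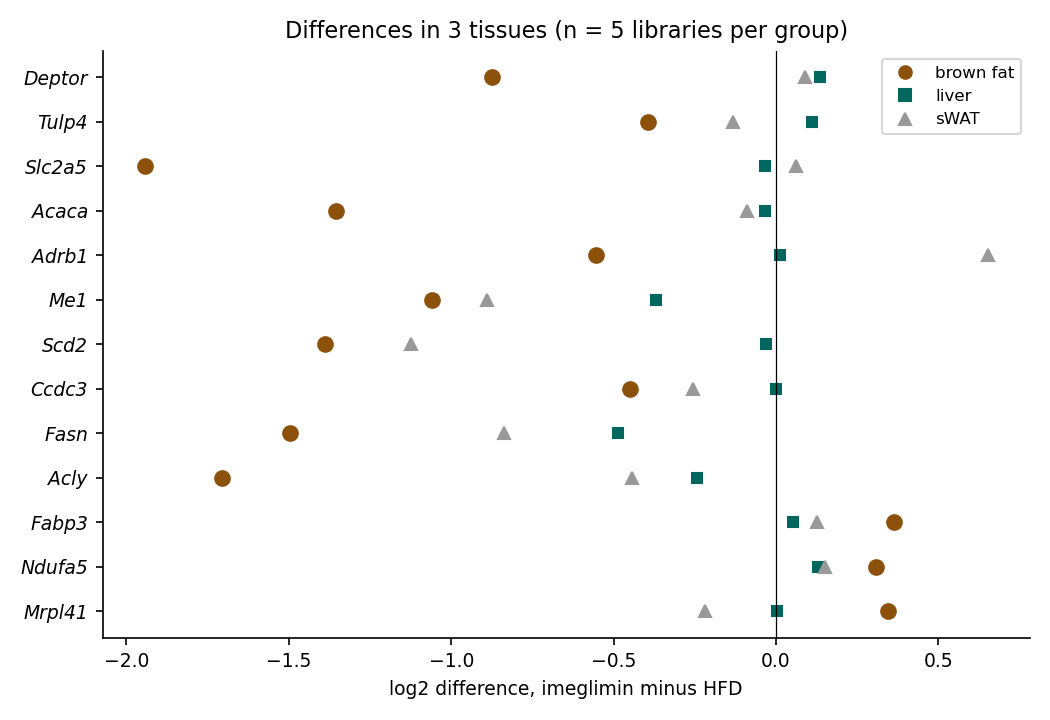
Log2 difference of imeglimin minus HFD in BAT, liver and sWAT for genes named in the text, with a brown circle for BAT, a green square for liver and a grey triangle for sWAT, 5 libraries per group. Deptor is at -0.87 in BAT, 0.14 in liver and 0.09 in sWAT, and Slc2a5, whose sWAT level is near 0 TPM, at -1.94 in BAT and -0.03 in liver, while Me1 and Scd2 have negative values in sWAT as well.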

How the data were processed

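RNA of each library was selected for poly(A) and made into strand-specific libraries, per the labels' protocols. The authors deposited 1 table of TPM for 55357 genes and 30 libraries, made with STAR and RSEM on GRCm39 per the submitters' processing notes, with no versions stated. Each column sums to 1000000, so the sequencing depth is unknown and no counting error or limit of detection can be given. A higher share of a few transcripts lowers the TPM of all others. The series text speaks of 4 against 4, whereas the labels give 5 libraries per group, which were used.

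For BAT, 37 genes of the mitochondrial chromosome were dropped and libraries were scaled by median ratios over genes with at least 1 TPM in all 10. Genes with at least 1 scaled TPM in 5 of 10 libraries were kept, transformed as log2(scaled TPM + 1), and tested with limma 3.58.1 (R 4.3.3, moderated test with a mean-variance trend, two-sided, imeglimin minus HFD, Benjamini-Hochberg adjustment over all 11391 genes). Fold changes are on this log2 scale and are understated for low genes. Responses of tissues were compared by interaction terms over all 30 libraries, each tissue scaled by itself. The share of mitochondrial TPM was compared by an exact permutation test. Nuclear near-copies (16) were found with BLAST+ 2.17.0 at 90% identity and 80% of length. Transcript length and GC came from the longest transcript of each gene in a GENCODE set, for 99.8% of genes tested. Tables and figures were made with Python 3.11.15, pandas 2.3.3, numpy 2.4.6 and matplotlib 3.10.9, and the fits were tested on simulated data.

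Promoter windows are from RefSeq, build GRCm38.p6, and were matched by symbol for 119 of 152 named genes. Named were the genes past the threshold, the next lowest p until 10 in each direction, the 5 largest non-overlapping differences in each direction, up to 4 members of lowest p in each list and the 5 of lowest p in each tissue comparison, leaving out predicted genes and means under 1 TPM in the first 3 of these, and some results of the rule are not reported here. Acss2, Elovl6, Scd1, Thrsp, Eno1, Hk2, Slc2a4, Ucp1, Lpl, Gpihbp1, Cpt1b, Mtor, Adrb3 and Cox6c were added after their values were seen. The members and lists were chosen with earlier results of these data known. Alternatives were other scalings (TPM as deposited, rescaling to a common total with or without the nuclear near-copies, upper quartile), pseudocounts and filters, library weights, a muscle covariate and left-out libraries, and, chosen after seeing the data, removal of length and GC trends.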

Additional observations from a re-analysis of the deposited data

Results flagged for a closer look

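Libraries that stood apart from the other 4 of their group were looked for in 206 groups of 5, and 14 were found, where chance gives about 1 in 20, or 10.3. In scaled TPM, imeglimin library 88 stood apart for Fabp3 at 2245 and Hadha at 499, imeglimin 91 for Mir17hg at 3.12, imeglimin 86 for Npr3 at 54.8 and imeglimin 94 for Adrb3 at 222. HFD library 79 stood apart for Ddt at 122 and Etfb at 947, HFD 76 for Tsc2 at 21.8, and HFD 80 for Gpnmb at 4.73 and Slc25a44 at 48.8. In summed TPM of defining markers, imeglimin 94 stood apart for skeletal muscle at 5839 and HFD 79 at 6607, and imeglimin 91 for endothelial cells at 188 and for fibroblasts and collagen at 50.8.

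The response to imeglimin differed between tissues for the genes below by the test of the difference in limma, which took all 30 libraries as independent. With the replicate number as a block, 0 genes differed from liver, where the lowest adjusted p in limma was 0.0526. Against liver, the BAT response minus the liver response was -1.01 for Deptor, -0.50 for Tulp4, -1.91 for Slc2a5 and 0.81 for Proca1 on the log2 scale. Against sWAT it was -0.96 for Deptor, -1.26 for Acaca, -1.20 for Adrb1, 0.56 for Mrpl41, 0.87 for Alg14 and 1.31 for Fbln7. Adrb1 was not among the genes called against sWAT in the block fit.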

How the results depend on the processing

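Of 2128 values recomputed for the 93 genes named, 2120 kept their direction and 8 changed sign. Ucp1 was at -0.0581 with TPM as deposited, -0.0547 with mitochondrial genes dropped and rescaling only, and -0.00496 with the muscle covariate. Adrb3 was at -0.0181 and -0.0147 in those scalings and -0.00818 without libraries 79 and 94, and Alg14 at -0.0214 and -0.0186 in the same scalings. The cause was not tested.

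The 5 lower and 0 higher calls in BAT became 98 and 1 with TPM as deposited, where 2627 genes were lower and 143 higher at an unadjusted p under 0.05 and 750 and 26 did not overlap. With mitochondrial genes dropped and rescaling only they became 224 and 4, with 2799 and 172 at that p and 877 and 28 without overlap. There were 0 lower calls with no filter on low values, with the muscle covariate, without libraries 79 and 94 (where 399 lower and 397 higher did not overlap, in smaller groups) and with the length trend removed, and 3 with length and GC trends removed. Library weights gave 10 lower and 4 higher, and a filter at 5 TPM gave 4 higher. Leaving out 1 library gave 0 to 53 lower and 0 to 51 higher calls, and 259 to 496 lower and 265 to 430 higher genes without overlap.

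The difference in mitochondrial share, 0.163 percentage points (exact permutation p = 0.833), ranged from -0.224 to 0.699 with 1 library left out, and with nuclear copies added it was 2.80 (exact permutation p = 0.0238). Calls for BAT against liver, 6 lower and 3 higher, became 24 and 1 with TPM as deposited, 8 and 1 without BAT libraries 79 and 94, and 0 to 50 and 0 to 29 with 1 number left out. They became 16 and 11 without sWAT imeglimin 88, a library outside this comparison, since the 3 tissues share 1 estimate of the spread. Those against sWAT, 41 and 33, became 309 and 20 with TPM as deposited, 17 and 7 without BAT 79 and 94, 77 and 51 without sWAT imeglimin 88, and 0 to 184 and 0 to 119 with 1 number left out.

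No paired analysis was possible within BAT because the groups share no replicate numbers. Tissues share them, but not every pair of same-numbered libraries deviated together (correlations from -0.0417 to 0.229 for BAT with liver and from -0.571 to 0.36 for BAT with sWAT). With the replicate number as a block, 0 genes differed from liver, and 25 were lower and 14 higher against sWAT. Depth is unknown, so low genes carry an error that cannot be stated.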
